A study of Mus musculus with 22 samples.

Results

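Binding sites of the transcription factor C/EBPβ were compared between undifferentiated MC3T3-E1 cells and the same cells after 15 days of osteogenic culture. MC3T3-E1 is an established mouse pre-osteoblast line that lays down a mineralized collagen matrix when differentiated. The members are all regions of the 2 C/EBPβ lists, on chromosomes 1 to 19 and X. There were 17950 sites in undifferentiated cells and 16557 in differentiated cells, 34507 of the 360258 regions of the 22 lists in the series. A site was taken as shared when it overlapped a site of the other state by at least 1 bp, which divides the sites into 3 classes: called in both states, in undifferentiated cells only, or in differentiated cells only.

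Both groups had received calcitriol, the active vitamin D hormone, at 100 nM for 3 h, so every C/EBPβ site described here is from hormone-treated cells. C/EBPβ lists without hormone were not analysed here. The differentiated group had been kept for 15 days with 10 mM of glycerol 2-phosphate and 50 µg/mL of ascorbic acid. Per the labels' protocols, passages 5 to 12 of the line were used and no genetic change is named. Only the differentiated cultures were homogenized and spun through sucrose to clear the mineralized matrix, so state and preparation cannot be told apart. Chromatin immunoprecipitation sequencing (ChIP-seq) gave 1 list for each antibody, state and treatment, and 97.9% and 98.2% of the C/EBPβ regions were merged from 2 peaks, so each list was taken to hold regions found in more than 1 replicate experiment. The spread between cultures could therefore not be measured, and there is no p-value below. Intervals are 95% intervals for the counting of sites, exact (Clopper-Pearson) for a share and Newcombe's for a difference, and sites are not replicates. Depth is unknown, because the lists hold no read counts, and a call absent from a list is not the same as absent binding.

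C/EBPβ is a basic leucine zipper protein that binds DNA as a dimer, either with itself or with relatives such as C/EBPα, C/EBPδ and ATF4. It acts in inflammation, fat cell formation and the early osteoblast lineage, where it has been studied beside RUNX2, the factor that defines osteoblasts. Its sites pair 2 half-sites, and the consensus is searched below as TTGCNNAA or TTACNNAA on either strand. The palindrome TTGCGCAA is the self-complementary form and holds a CG dinucleotide at its centre. CG is the dinucleotide at which mammalian DNA is usually methylated; methylation was not measured in this series. VDR is the receptor of calcitriol and RXR its dimer partner. Of the histone marks, H3K4me1 lies at enhancers, H3K4me3 at active starts, H3K9ac and H4K5ac at active chromatin and H3K36me3 along transcribed genes.

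The following 10 sites near genes of interest are examples from the 3 classes. Consensus matches with CG are over-represented among them. Such matches lay at 9.78% of sites of both states, 10.8% of undifferentiated-only and 2.54% of differentiated-only sites. They are whole sites of genome build mm9, with each C/EBP consensus match in capitals. They come from the sites of each class nearest to a start of the named genes that carry a match, or a match holding CG, and that touch no UTR. The first 3 were called in both states. Orm1 encodes an acute phase protein of blood plasma, and its promoter site, 128 bp upstream of the start, holds the palindrome. A second palindrome lies between genes, 4034 bp upstream of Tgfbr1, a TGF-beta receptor. The Spp1 site lies 699 bp upstream of the start of osteopontin, an acidic bone matrix protein, and was also called for VDR, RXR and RUNX2 in both states.
Orm1, chr4:63005366-63005566, plus strand: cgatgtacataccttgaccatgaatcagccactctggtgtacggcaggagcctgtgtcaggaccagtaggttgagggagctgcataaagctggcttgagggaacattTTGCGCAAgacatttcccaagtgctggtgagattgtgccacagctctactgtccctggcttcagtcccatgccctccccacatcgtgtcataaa
Tgfbr1, chr4:47361960-47362160, plus strand: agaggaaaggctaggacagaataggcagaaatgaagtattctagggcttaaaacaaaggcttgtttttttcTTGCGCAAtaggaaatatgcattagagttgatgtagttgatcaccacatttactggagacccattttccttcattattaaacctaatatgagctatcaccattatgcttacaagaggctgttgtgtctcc
Spp1, chr5:104863338-104863538, plus strand: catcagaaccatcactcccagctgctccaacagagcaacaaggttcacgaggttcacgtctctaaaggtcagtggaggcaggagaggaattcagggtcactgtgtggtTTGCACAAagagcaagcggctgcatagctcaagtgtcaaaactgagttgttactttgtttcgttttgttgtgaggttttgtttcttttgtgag
The next 3 were called in undifferentiated cells only. The Cyp24a1 site lies 357 bp upstream of the start of the enzyme that breaks down calcitriol. It overlapped a VDR and an RXR site of calcitriol-treated undifferentiated cells, no RUNX2 site, no VDR or RXR site of differentiated cells, and no region of the 5 marks in either state. The Ankrd1 site, 10562 bp downstream of its start and between genes, and the Cebpb site, 21854 bp downstream of the start of the C/EBPβ gene itself, each hold a match with CG.
Cyp24a1, chr2:170322902-170323102, plus strand: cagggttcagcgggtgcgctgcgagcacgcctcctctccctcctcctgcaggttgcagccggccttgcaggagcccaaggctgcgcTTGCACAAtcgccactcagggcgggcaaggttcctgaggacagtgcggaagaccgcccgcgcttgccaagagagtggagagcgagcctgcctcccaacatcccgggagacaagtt
Ankrd1, chr19:36183672-36183872, plus strand: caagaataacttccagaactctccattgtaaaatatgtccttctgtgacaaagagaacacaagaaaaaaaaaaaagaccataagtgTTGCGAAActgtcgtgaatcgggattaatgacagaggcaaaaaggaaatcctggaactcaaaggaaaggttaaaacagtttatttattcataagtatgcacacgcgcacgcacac
Cebpb, chr2:167536169-167536369, plus strand: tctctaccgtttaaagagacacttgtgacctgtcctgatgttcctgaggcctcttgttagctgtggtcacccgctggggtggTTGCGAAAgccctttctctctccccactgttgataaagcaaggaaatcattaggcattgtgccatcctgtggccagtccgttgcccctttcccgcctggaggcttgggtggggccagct
The last 4 were called in differentiated cells only. The Dcn site lies 773 bp upstream of a start of decorin, a collagen-binding proteoglycan, and has 3 matches. The Tgfbr3 site lies in an intron, 2704 bp downstream of a start of the TGF-beta co-receptor betaglycan, and the Mepe site in an intron, 3644 bp downstream of the start of a phosphoglycoprotein made by late osteoblasts and osteocytes. The matches of these 3 hold no CG. The Col24a1 site, in an intron 38766 bp downstream of the start of a fibrillar collagen gene, is shown as one of the 126 sites of this class whose match does hold CG. All 4 lay within H3K4me1 and H4K5ac regions of undifferentiated cells, where C/EBPβ was not called, and within the same marks in differentiated cells.
Dcn, chr10:96941372-96941572, plus strand: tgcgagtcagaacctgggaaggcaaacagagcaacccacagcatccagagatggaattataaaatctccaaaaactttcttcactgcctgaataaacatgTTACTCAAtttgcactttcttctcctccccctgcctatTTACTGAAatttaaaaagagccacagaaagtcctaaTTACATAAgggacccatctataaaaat
Tgfbr3, chr5:107618582-107618782, plus strand: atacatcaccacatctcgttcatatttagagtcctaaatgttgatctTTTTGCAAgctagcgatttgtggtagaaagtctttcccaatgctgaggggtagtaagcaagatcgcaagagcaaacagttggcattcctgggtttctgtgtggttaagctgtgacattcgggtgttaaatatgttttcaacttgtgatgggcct
Mepe, chr5:104757892-104758092, plus strand: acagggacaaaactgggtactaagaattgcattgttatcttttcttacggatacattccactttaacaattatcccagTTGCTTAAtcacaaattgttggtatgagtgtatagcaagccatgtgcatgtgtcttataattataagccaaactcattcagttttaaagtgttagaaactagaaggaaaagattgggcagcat
Col24a1, chr3:144994157-144994357, plus strand: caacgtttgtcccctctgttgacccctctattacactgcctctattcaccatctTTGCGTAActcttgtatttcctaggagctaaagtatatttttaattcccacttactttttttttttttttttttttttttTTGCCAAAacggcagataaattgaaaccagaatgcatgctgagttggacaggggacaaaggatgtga

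Most C/EBPβ sites were called in both states. Of the sites of undifferentiated cells, 11610 (64.7%, 64.0 to 65.4) overlapped a site of differentiated cells and 6340 did not. Counted from the other side, 11602 sites of differentiated cells (70.1%, 69.4 to 70.8) were shared and 4955 were not. The centres of shared sites lay a median of 15 bp apart, and 90.0% were within 50 bp. The nearest site of the other state lay a median of 19360 bp from an undifferentiated-only site and 17969 bp from a differentiated-only site. Within 1 kb there was a site of the other state for 692 of the undifferentiated-only sites (10.9%) and 437 of the differentiated-only sites (8.82%). Both classes were spread over all 20 chromosomes, where the ratio of differentiated to undifferentiated sites ranged from 0.810 on chromosome 19 to 1.00 on chromosome 18.

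Differentiated-only sites were scarce at promoters. Within 1 kb of an annotated start of a protein-coding transcript lay 13.9% (13.3 to 14.5) of the sites called in both states, 13.4% (12.6 to 14.3) of the undifferentiated-only sites and 4.56% (4.00 to 5.18) of the differentiated-only sites. The difference between the state-only classes was -8.83 percentage points (-9.85 to -7.81). Introns held more of the differentiated-only sites, 44.4% against 35.1% of undifferentiated-only sites, a difference of 9.25 points (7.43 to 11.1). The share between genes was nearly the same, 49.4% and 49.5%, with a difference of -0.0793 points (-1.94 to 1.78). The median distance to the nearest start was 21862 bp for sites of both states, 23994 bp for undifferentiated-only sites and 31271 bp for differentiated-only sites.

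**Figure D1:**
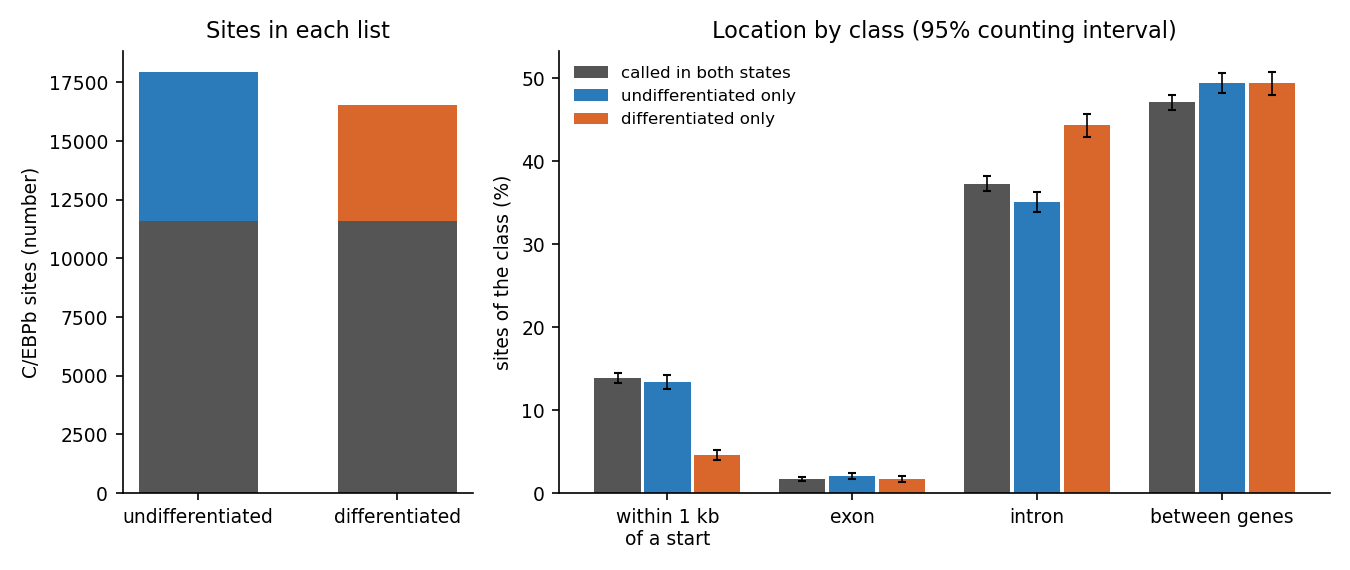
Left, number of C/EBPβ sites in each list, divided into sites called in both states (grey) and in that state only (blue, undifferentiated; orange, differentiated). Right, share of each class by location, with 95% counting intervals; only 4.56% of differentiated-only sites lie within 1 kb of a start, against 13.4% of undifferentiated-only sites.

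The C/EBP consensus was present in every class but in different forms. A match lay in the 200 bp around the centre at 56.9% (56.0 to 57.8) of sites of both states, 46.6% (45.3 to 47.8) of undifferentiated-only and 55.1% (53.7 to 56.5) of differentiated-only sites, against 16.7%, 16.8% and 17.5% in flanking windows 2 kb away. The closest match lay a median of 20.5 bp from the centre of sites of both states and 24.5 bp in either state-only class. Undifferentiated sites with a match were called again in differentiated cells more often than those without, 69.1% (68.2 to 70.0) against 59.6% (58.6 to 60.7). The difference of differentiated-only sites from sites of both states, -1.76 points (-3.41 to -0.108), turned to 0.320 points (0.0466 to 0.555) when 1 mismatch was allowed. That looser search is passed by more windows, so these values are not on one scale.

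The classes parted on whether the match held CG, a division made after the values were seen. The palindrome TTGCGCAA was found at 280 sites of both states (2.41%), at 205 undifferentiated-only sites (3.23%) and at 6 differentiated-only sites (0.121%). Any match with CG inside its 8 bases was found at 9.78% (9.24 to 10.3), 10.8% (10.1 to 11.6) and 2.54% (2.12 to 3.02) of the 3 classes. Differentiated-only minus undifferentiated-only sites gave -8.29 percentage points (-9.18 to -7.41). In flanking windows matches with CG lay at 0.564%, 0.678% and 0.525%. The sites of every class thus exceeded their flanks, 17.3-, 16.0- and 4.85-fold. Matches without CG went the other way, at 49.3% (48.3 to 50.2) of sites of both states, 38.0% (36.8 to 39.3) of undifferentiated-only and 53.4% (52.0 to 54.8) of differentiated-only sites. In flanks, matches without CG lay at 16.2%, 16.2% and 17.1%, and sites exceeded these 3.03-, 2.35- and 3.13-fold. Single words with CG were scarcest at differentiated-only sites. TTACGCAA was found at 2.58%, 3.28% and 0.383% of sites of both states, undifferentiated-only and differentiated-only sites, and TTGCGAAA at 2.79%, 2.33% and 0.626%. TTGCAAAA, which holds no CG, was found at 5.34%, 3.38% and 6.38%. Words without CG varied. TTGCACAA, the most frequent match, was at 11.3%, 7.52% and 8.05%, and TTGCCCAA at 3.70%, 2.67% and 3.27%. Both were highest at sites of both states, with a smaller gap between the state-only classes. Among all 8-letter words in the central 100 bp, each of the 10 with the largest surplus in undifferentiated-only over differentiated-only sites held CG.

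From the side of each list, the asymmetry is as follows. Of the 286 palindrome sites of differentiated cells, 280 (97.9%, 95.5 to 99.2) were also called in undifferentiated cells, whereas of the 485 palindrome sites of undifferentiated cells 280 (57.7%, 53.2 to 62.2) were also called in differentiated cells. For any match with CG the shares were 90.0% (88.2 to 91.6) of 1262 differentiated sites and 62.3% (60.0 to 64.5) of 1822 undifferentiated sites. Sites whose matches all lacked CG were shared at 67.8% (66.7 to 68.8) of 8084 differentiated and 70.7% (69.7 to 71.7) of 7734 undifferentiated sites. In differentiated cells alone, 126 sites with a CG match and 6 with the palindrome were called.

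The number of CG dinucleotides in the whole window moved with the class in the same direction. The mean was 3.49 per 200 bp at sites of both states, 3.56 at undifferentiated-only and 2.09 at differentiated-only sites, while flanks held 2.22, 2.19 and 1.93. The median GC content of the windows was 46%, 46% and 43%. In the list of differentiated cells, the share of sites absent from undifferentiated cells was 41.2% (39.2 to 43.2) with no CG in the window, 28.7% (26.9 to 30.5) with 3 and 4.16% (2.91 to 5.73) with 10 or more. In the list of undifferentiated cells that share lay between 32.7% and 37.9% in every bin, with no such order. Over 1 kb from a start, matches with CG lay at 8.76%, 11.3% and 2.35% of the 3 classes. With at most 3 CG in the window, a limit also set after the values were seen, they lay at 6.51% (5.98 to 7.09), 9.02% (8.18 to 9.91) and 2.05% (1.64 to 2.54). The part of base composition in this result was not tested.

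The RUNX2 and RXR lists, made from the same cells, allow the same measure. Over 1 kb from a start, the mean number of CG per 200 bp was 2.56 at undifferentiated-only and 1.98 at differentiated-only C/EBPβ sites. It was 3.06 and 2.75 at the matching classes of RUNX2 sites, and 3.10 and 2.88 at those of RXR sites. Windows without any CG made up 14.6% and 20.4% of these C/EBPβ classes, 13.1% and 13.0% of the RUNX2 classes and 11.2% and 12.2% of the RXR classes. The direction of the means was the same for all 3 factors, and no test of the difference between factors was made.

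**Figure D2:**
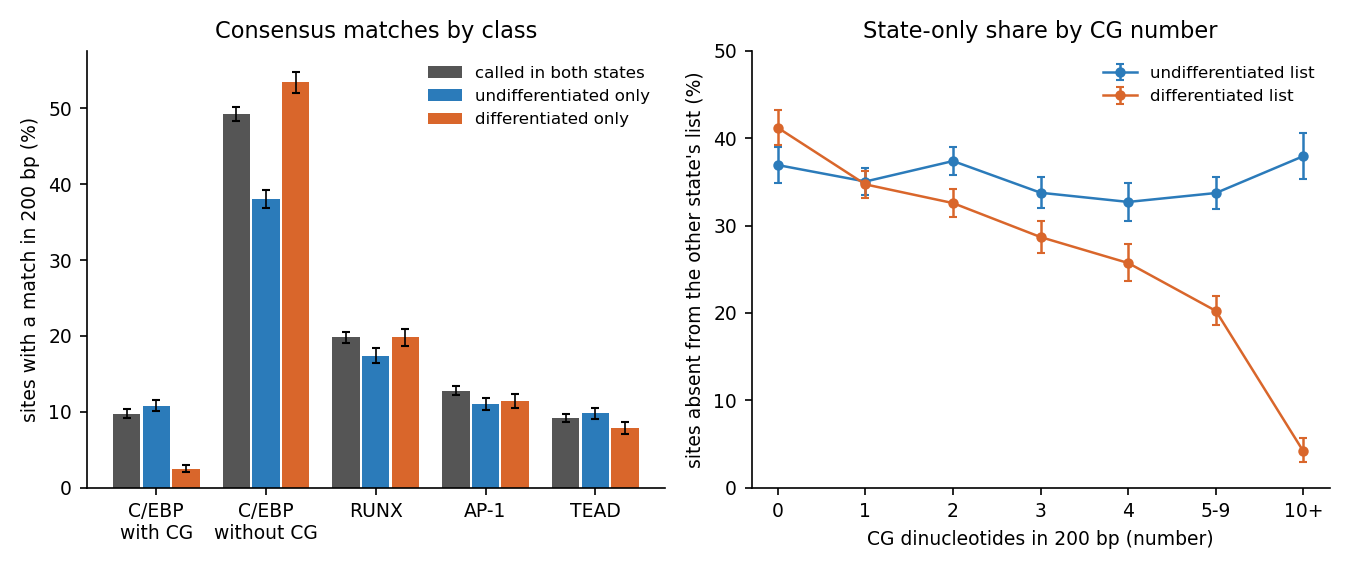
Left, share of each class of C/EBPβ sites with a consensus match in the 200 bp window, with 95% counting intervals; matches with CG are at 2.54% of differentiated-only sites. Right, share of each list that is absent from the other state, by the number of CG in the window; the orange line descends from 41.2% to 4.16%, and the blue line stays between 32.7% and 37.9%.

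Consensus sequences of other factors were searched in the same windows. The RUNX consensus, searched as TGTGGTT or TGTGGTC and also as TGCGGTT or TGCGGTC, was found at 19.8% of sites of both states, 17.4% of undifferentiated-only and 19.8% of differentiated-only sites. The AP-1 consensus TGACTCA or TGAGTCA, bound by FOS and JUN proteins, was found at 12.8%, 11.1% and 11.4%. The difference between the state-only classes was 2.41 points (0.960 to 3.86) for RUNX and 0.366 points (-0.803 to 1.55) for AP-1. The TEAD consensus (ACATTCCA, ACATTCCT, GCATTCCA or GCATTCCT) was at 9.21%, 9.81% and 7.83%. In flanking windows of undifferentiated-only sites RUNX lay at 8.72%, AP-1 at 3.57% and TEAD at 3.53%. The composite TGATGCAA, bound by C/EBP with ATF4, was at 6.43%, 5.28% and 4.24%, against 0.474%, 0.576% and 0.424% of flanks. The cyclic AMP element TGACGTCA, which holds CG, was at 0.345%, 0.489% and 0.0605%, and the ETS consensus CCGGAAGT, also with CG, at 0.749%, 0.789% and 0.182%. In flanks of differentiated-only sites these lay at 0.101% and 0.192%. Away from promoters the ETS difference between the state-only classes ended, at -0.143 points (-0.340 to 0.0496). The DR3 element of VDR and RXR and the palindromic NFI consensus were rare, DR3 at 0.0689%, 0.205% and 0.0202% of the 3 classes and NFI at 0.0517%, 0.0631% and 0.0202%. A match describes letters and not a binding event.

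In the calcitriol lists, counted over all locations, sites of both states overlapped partner factors most often in either state. Within 1 kb of a start the order differed in undifferentiated cells. There RXR lay at 16.7% of undifferentiated-only sites and 12.4% of sites of both states. VDR lay at 12.8% against 9.50% and RUNX2 at 23.9% against 21.9%. In differentiated cells the shares near a start were 14.7% against 14.5% for RXR, 2.83% against 1.55% for VDR and 10.8% against 13.8% for RUNX2. RUNX2 of undifferentiated cells, with 12012 sites in all, overlapped 24.1% (23.3 to 24.9) of the C/EBPβ sites of both states, 20.03% (19.1 to 21.0) of the undifferentiated-only sites and 7.45% (6.73 to 8.21) of those not yet called for C/EBPβ. RUNX2 of differentiated cells, with 7919 sites in all, overlapped 19.3%, 8.91% and 12.0% of the 3 classes. The difference between differentiated-only and undifferentiated-only sites was -12.6 points (-13.8 to -11.4) for the RUNX2 list of undifferentiated cells and 3.14 points (2.00 to 4.29) for that of differentiated cells.

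RXR showed a similar order. In undifferentiated cells with calcitriol it was called at 18.0% of sites of both states, 15.8% of undifferentiated-only and 4.04% of differentiated-only sites. In differentiated cells it was called at 22.7%, 10.9% and 11.4%, and the state-only classes did not differ beyond the counting interval there (0.571 points, -0.593 to 1.75). Over 1 kb from a start the difference was 1.27 points (0.0623 to 2.49). VDR of undifferentiated cells with calcitriol lay at 18.0%, 16.5% and 3.83% of the classes. In differentiated cells, where the whole VDR list held 871 sites against 7000, it lay at 2.03%, 1.44% and 0.626%. No site of these 3 factors in any of their 10 lists was found at 60.4% (59.5 to 61.3) of C/EBPβ sites of both states, 68.7% (67.5 to 69.8) of undifferentiated-only and 79.5% (78.4 to 80.6) of differentiated-only sites. Most differentiated-only C/EBPβ sites carried none of these partners.

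The calls of RUNX2 and RXR differed between states by C/EBPβ class. At undifferentiated-only C/EBPβ sites, 38.7% (36.1 to 41.5) of the 1270 RUNX2 calls of undifferentiated cells were made again in differentiated cells, and at sites of both states 59.8% (58.0 to 61.6) of 2794. New RUNX2 calls numbered 73 at undifferentiated-only sites, where 778 were not made again. At differentiated-only sites 370 were new and 142 not made again, and at sites of both states 570 and 1123. For RXR, 54.0% (50.9 to 57.1) of calls were made again at undifferentiated-only sites, 77.2% (75.3 to 79.0) at sites of both states and 81.0% (74.9 to 86.2) at differentiated-only sites. New RXR calls lay at 404 differentiated-only sites (8.15%), 1029 sites of both states (8.86%) and 148 undifferentiated-only sites (2.33%). Those not made again numbered 38, 477 and 460. VDR calls were made again at 8.23%, 10.6% and 11.6% of the undifferentiated-only, shared and differentiated-only sites that had one. RUNX2 sites without C/EBPβ in either state were called again at 36.02% (34.9 to 37.1) of 7587, and RXR sites without C/EBPβ at 53.8% (52.3 to 55.2) of 4327. At an undifferentiated-only C/EBPβ site these shares of RUNX2 and RXR sites were 40.5% (37.8 to 43.3) and 56.1% (52.9 to 59.2).

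Sites of undifferentiated cells were also compared by whether C/EBPβ was called again. Among sites of undifferentiated cells with 0, 1, 2 or 3 of RUNX2, RXR and VDR in the calcitriol lists, 63.7%, 65.3%, 66.7% and 69.8% were called in differentiated cells. With a RUNX2 site the share was 68.8% (67.3 to 70.2) against 63.5% (62.7 to 64.3) without. With and without a region of H3K4me1 the shares lay further apart, 66.1% (65.4 to 66.8) against 45.1% (42.2 to 47.9).

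**Figure D3:**
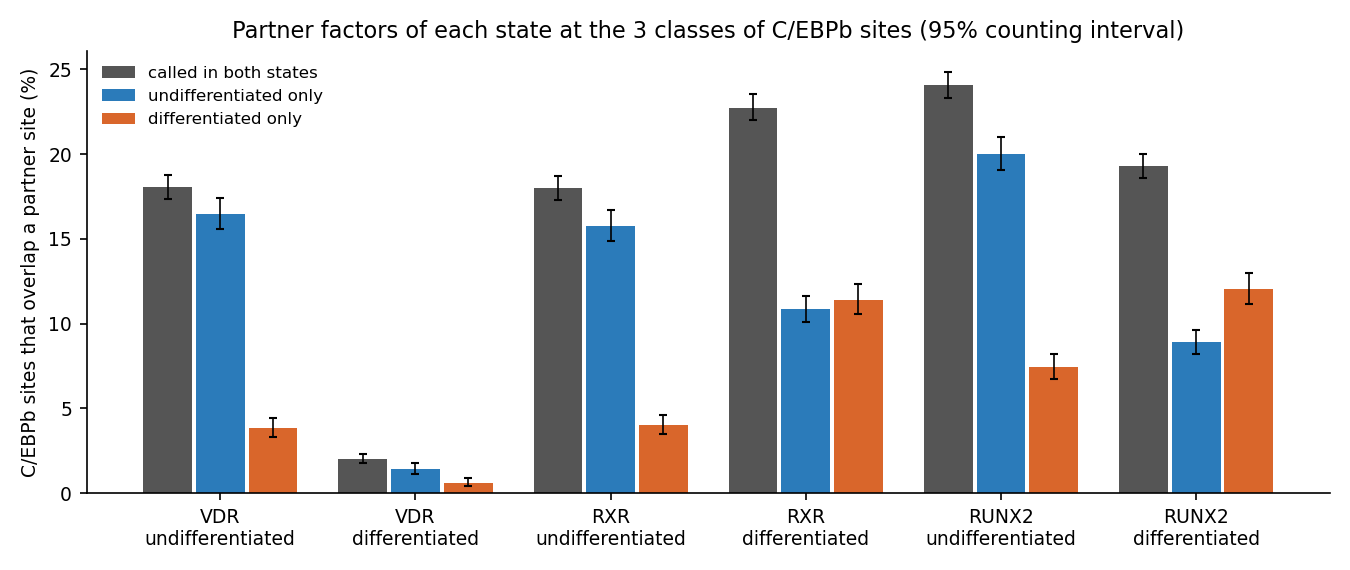
Share of C/EBPβ sites of each class that overlap a VDR, RXR or RUNX2 site of each state under calcitriol, with 95% counting intervals. In the lists of undifferentiated cells the differentiated-only class (orange) is lowest, between 3.83% and 7.45%; for RUNX2 of differentiated cells it lies at 12.0%, above the 8.91% of the undifferentiated-only class.

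All 3 classes lay mostly in chromatin with H3K4me1 in either state, also in the state where C/EBPβ was not called. H3K4me1 regions of undifferentiated cells, which cover 13.0% of the genome, overlapped 95.3% of the sites of both states, 89.6% (88.8 to 90.4) of undifferentiated-only sites and 83.5% (82.4 to 84.5) of differentiated-only sites. In differentiated cells the shares were 94.9%, 86.5% (85.6 to 87.3) and 88.5% (87.6 to 89.4). At undifferentiated-only sites, 94.6% (94.0 to 95.2) of the H3K4me1 calls of undifferentiated cells were made again after C/EBPβ was no longer called. Of the differentiated-only sites with H3K4me1 in differentiated cells, 91.4% already had it in undifferentiated cells.

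H3K9ac was least frequent at differentiated-only sites in both states. H4K5ac of undifferentiated cells lay at 91.3%, 85.1% and 76.9% of sites of both states, undifferentiated-only and differentiated-only sites, and in differentiated cells at 88.3%, 76.8% and 77.2%. H3K9ac, which covers 2.54% of the genome in undifferentiated cells, lay there at 46.3%, 40.9% (39.7 to 42.2) and 19.0% (17.9 to 20.1) of the classes. In differentiated cells it lay at 59.5%, 47.7% (46.5 to 48.9) and 32.7% (31.4 to 34.0), when the whole list covered 3.36%. Even where C/EBPβ was called in differentiated cells only, H3K9ac of the same cells was less frequent than at sites where C/EBPβ was no longer called (difference -15.0, -16.8 to -13.2). Over 1 kb from a start the shares of H3K9ac in differentiated cells were 54.2%, 41.3% and 30.7%, and the difference between the state-only classes was -10.6 points. New H3K9ac calls at differentiated-only sites numbered 709 (14.3% of the class), against 31 not made again. The gain was not particular to this class. At sites of both states 1702 were new (14.7%) and 163 not made again, and at undifferentiated-only sites 588 (9.27%) and 159.

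H3K4me3 and H3K36me3 differed in direction. H3K4me3 of undifferentiated cells lay at 19.1%, 17.9% and 9.89% of the 3 classes and that of differentiated cells at 13.5%, 11.8% and 3.83%. The part of the genome it covered was 1.94% and 0.841%. Over 1 kb from a start the gap between classes was smaller. There H3K4me3 lay at 11.8%, 10.8% and 8.10% in undifferentiated cells and at 4.14%, 3.31% and 1.76% in differentiated cells. H3K36me3 was more frequent at differentiated-only sites than at undifferentiated-only sites in both states, at 31.3% against 27.1% in undifferentiated and 24.1% against 19.0% in differentiated cells. The differences were 4.16 points (2.47 to 5.86) and 5.10 points (3.57 to 6.64). None of the 5 marks was found at 2.74%, 7.27% and 10.9% of the classes in undifferentiated cells and at 3.43%, 10.8% and 8.25% in differentiated cells.

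**Figure D4:**
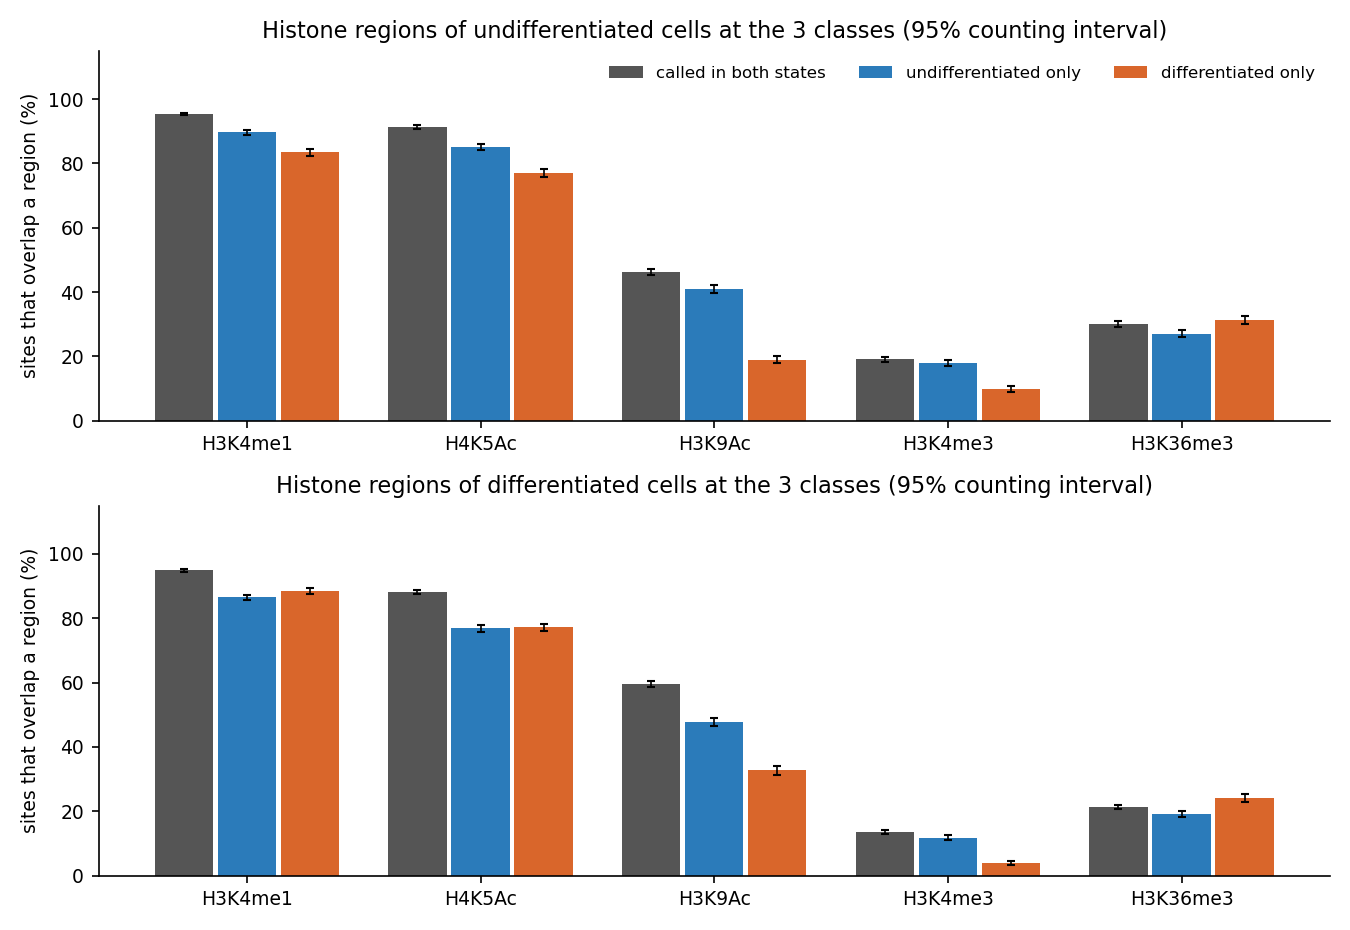
Share of C/EBPβ sites of each class that overlap a region of 5 histone marks in undifferentiated (upper panel) and differentiated cells (lower panel), with 95% counting intervals. H3K4me1 lies between 83.5% and 95.3% over all classes and both panels, and H3K9ac is lowest at differentiated-only sites, 19.0% and 32.7%.

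Genes were related to sites by the number of site centres within 100 kb of any annotated start. At least 1 site lay near 14627 of 22208 protein-coding genes in undifferentiated cells (65.9%) and near 13578 in differentiated cells (61.1%). The mean was 2.15 and 1.85 sites per gene, and the median difference over all genes was 0. A gene was called different when the numbers differed at least 2-fold and by at least 3 sites. By this rule 276 genes (1.24%) had more sites in differentiated cells and 746 (3.36%) had more in undifferentiated cells, whose list is longer. The counts depend on the reach: within 50 kb they were 138 and 337, and 98 and 165 when each site counted only for the gene with the nearest start.

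The 18 lists of genes of bone, vitamin D and C/EBP biology and of other cell types hold 211 annotated genes, most of them near C/EBPβ sites. Sites lay near 188 of them (89.1%) in undifferentiated and 185 (87.7%) in differentiated cells, and their median was 3 sites in each state. Of the 211, 2 (0.948%) were called with more sites in differentiated cells and 18 (8.53%) with more in undifferentiated cells. Among genes with at least 3 sites in a state, which alone can be called, these were 1.38% and 12.4% of 145 list genes, beside 3.36% and 9.07% of 8223 genes in all. The median difference over the list genes was 0, as over all genes.

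Bone matrix and mineralization genes, 22 in all, had 176 sites in undifferentiated and 180 in differentiated cells, counted per gene, of which 125 were called in both states, 51 in undifferentiated and 54 in differentiated cells only. In differentiated cells 9 genes had more sites, 8 had fewer and 5 the same number. Fn1, the gene of fibronectin, on which collagen is assembled, had 3 sites in undifferentiated and 8 in differentiated cells, with no undifferentiated-only site. Phex, an endopeptidase of phosphate control in bone, had 2 and 5. These were the members called with more sites in differentiated cells. Of all genes with at least 3 sites in a state, 3.36% were called in that direction and 9.07% in the other. Dcn had 18 and 24 sites, with 11 differentiated-only ones, and VDR was called at 8 of the 18 and 0 of the 24. Over the genome, VDR of undifferentiated cells lay at 18.0% of sites of both states and 16.5% of undifferentiated-only sites. That of differentiated cells lay at 2.03% of sites of both states and 0.626% of differentiated-only sites. Mepe had 10 and 15, Spp1 16 and 20 and Ibsp, the gene of bone sialoprotein, 8 and 10; these 3 neighbours on chromosome 5 share part of their sites, and none passed the rule. Sparc, the gene of osteonectin, had 8 and 4 sites and was called with more in undifferentiated cells. Col1a2, a chain of type I collagen, had 22 and 15, with 9 undifferentiated-only sites, the nearest 62 bp from a start. Col1a1, the other chain, had 10 and 8, Alpl, the phosphatase that marks osteoblasts, 3 and 3, and Bglap, the gene of osteocalcin, 2 and 2.

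Vitamin D response genes had 82 sites in undifferentiated and 71 in differentiated cells over 14 genes, and the 3 members called all had more in undifferentiated cells. Calls over all genes also lay mostly in that direction, 746 (3.36%) against 276 (1.24%). The list is richer in sites, with a median of 5.5 in undifferentiated cells against 1 over all genes. Among all genes with at least 3 sites in a state, 9.07% were called with more in undifferentiated and 3.36% with more in differentiated cells. Vdr, the gene of the receptor, had 7 and 2 sites, of which 1 was called in both states, 6 in undifferentiated and 1 in differentiated cells only. VDR itself was called at 3 of its 7 C/EBPβ sites in undifferentiated cells and at 0 of 2 in differentiated cells. Over all C/EBPβ sites of both states, VDR was called at 18.0% in undifferentiated and 2.03% in differentiated cells. Cyp24a1 had 5 and 1 sites, and within 250 kb 8 and 8. Trpv6, a calcium channel, had 3 and 0. Tnfsf11, the gene of RANKL, the osteoclast signal, had 7 and 5 sites and Mmp13, a collagenase, 3 and 4, and neither passed the rule.

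Inflammatory and acute phase genes, classical C/EBPβ targets, had 113 and 95 sites over 17 genes. Csf3, the gene of G-CSF, and Orm1 each had 8 and 4 sites, and Ptgs2, the gene of the cyclooxygenase COX-2, had 6 and 3. These 3 were called with more sites in undifferentiated cells and none the other way, beside 746 (3.36%) and 276 (1.24%) of all genes. The list is richer in sites, with a median of 6 in undifferentiated cells against 1 over all genes. Among all genes with at least 3 sites in a state, 9.07% were called with more in undifferentiated and 3.36% with more in differentiated cells. Csf1, the gene of the macrophage growth factor M-CSF, had 21 and 15 and Socs3, an inhibitor of cytokine signalling, 13 and 8, with 5 undifferentiated-only and 0 differentiated-only sites. Lcn2, a siderophore-binding protein, had 6 and 6.

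The C/EBP genes and their dimer partners had 61 and 52 sites over 13 genes, and none passed the rule. Cebpb had 10 and 10 sites, 9 of them called in both states. Cebpa had 8 and 6, Cebpg 8 and 7 and Atf3, a stress-induced partner, 8 and 10. Osteoblast factor genes had 90 and 78 sites over 14 genes. Runx2 had 6 and 8 sites, all 6 of the former called in both states, and Sp7, the gene of osterix, had 4 and 3. Pparg, the regulator of fat cells, had 8 and 9. H3K9ac and H3K4me3 covered a start of Runx2, Sp7, Col1a1 and Spp1 in both states, and no region of the 5 marks covered a start of Bglap in either.

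The BMP and TGF-beta list of 22 genes had 99 and 90 sites. Id3, Smad7 and Tgfb3 were called with more sites in undifferentiated cells, each with 8 and 4. Among all genes with at least 3 sites in a state, 9.07% were called in this direction and 3.36% in the other. Id3 is a BMP target, Smad7 an inhibitory Smad and Tgfb3 a ligand. Tgfbr3 (8 and 14) and Tgfbr1 (4 and 7) were among the list members named for more sites in differentiated cells, and were not called. Other receptor genes of the list were not named. Over the list, 7 genes had more sites in differentiated cells, 12 had more in undifferentiated cells and 3 had equal numbers. Of the 22 Wnt genes, with 77 and 63 sites, Sfrp2, a secreted antagonist, was called at 8 and 4. Of 12 matrix protease genes, with 49 and 54 sites, Adamts5, an aggrecanase, was called at 7 and 2, while Timp2, an inhibitor of metalloproteinases, had 6 and 10. Further called members, all with more in undifferentiated cells, were Irs2 (5 and 2), Chac1 (4 and 1), Col2a1 (5 and 2), Neurod1 (4 and 1) and Actb (11 and 5). For the remaining lists, with the number of genes in parentheses, osteocyte genes (7) had 30 and 35 sites with Phex called. IGF and insulin genes (10) had 62 and 58, glutathione and stress genes (9) 28 and 21, chondrocyte genes (10) 24 and 28, neuron genes (8) 15 and 10 and housekeeping genes (10) 33 and 29, each with 1 of the members above called. Sox5 (5 and 8) and Sox6 (6 and 9) are cartilage factors of the chondrocyte list and were not called. Osteoclast coupling genes (6) had 44 and 35, adipocyte genes (12) 48 and 41, muscle genes (8) 5 and 4 and blood genes (7) 12 and 15, with no member called. 

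Several of these calls rest on the reach. Fn1 had 2 and 4 sites within 50 kb and 12 and 18 within 250 kb, and Phex 5 and 8 within 250 kb, neither passing. Dcn with 5 and 10 sites, Mepe with 1 and 5 and Timp2 with 3 and 7 passed within 50 kb. Vdr kept its call within 50 kb and 250 kb and lost it, at 3 and 1, when sites counted for the nearest gene only. Of the other called genes named from the lists, Actb, Adamts5, Csf3, Id3, Orm1, Sfrp2, Smad7 and Cyp24a1 each lost the call under at least 1 alternative.

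Over the whole genome, the largest differences towards differentiated cells were at Col24a1, a fibrillar collagen gene of developing bone, with 16 and 27 sites, of which 15 were differentiated-only. Me3, the gene of a mitochondrial malic enzyme, had 4 and 13 and Apbb2, an adaptor of the amyloid precursor protein, 10 and 18. Gm5528 (9 and 18) and 1700084J12Rik (4 and 13) are gene models without an established role. Towards undifferentiated cells stood Amotl2, an angiomotin-family scaffold of the Hippo pathway, with 23 and 13 sites, and Ankrd1, a stretch- and Hippo-responsive nuclear protein, with 11 and 2. At Ankrd1 RUNX2 was called at 6 of 11 C/EBPβ sites in undifferentiated cells and at 0 of 2 in differentiated cells, and at Amotl2 at 8 of 23 and 1 of 13. Gm10197 (13 and 3), Pbp2 (21 and 12) and Gm10093 (10 and 1) completed the 5. RUNX2 was called at 4 and 0 of these sites for Gm10197, at 7 and 4 for Pbp2 and at 3 and 1 for Gm10093. Over all C/EBPβ sites of both states, RUNX2 was called at 24.1% in undifferentiated and 19.3% in differentiated cells. Neither Amotl2 nor Ankrd1 had a differentiated-only site, and Me3 had no undifferentiated-only one. These genes were ranked by this difference, so their values are a description.

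**Figure D5:**
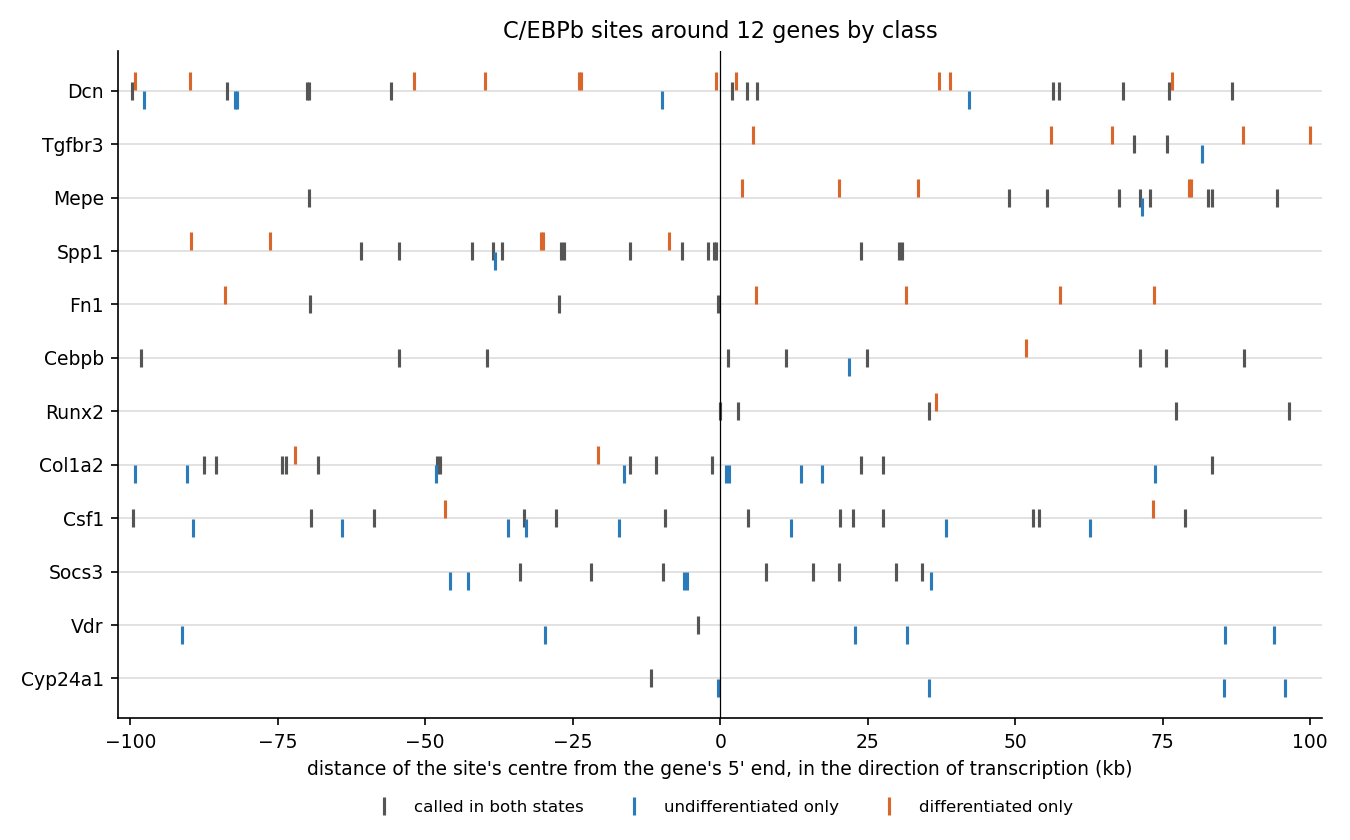
Positions of C/EBPβ sites around 12 genes, as distance from the gene's 5' end in the direction of transcription in kb; grey ticks are sites called in both states, blue ticks (lower) undifferentiated-only and orange ticks (upper) differentiated-only. Sites counted from other starts of a gene can lie outside the range drawn. Orange ticks outnumber blue ones at Dcn, Mepe, Spp1 and Fn1, and blue ones outnumber orange at Col1a2, Csf1, Socs3, Vdr and Cyp24a1.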

How the data were processed

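ChIP-seq region lists of MC3T3-E1 cells were analysed. The submitters' processing notes list Bowtie, HOMER and the mouse build mm9; their versions and settings were not given in the sources used here. The score column the authors deposited holds 0 in every transcription factor list and varies in the histone lists, where its meaning is not given. It served only to leave out the lowest-scored regions in 1 alternative for the marks. H4K5ac is named as in the sample labels; the protocol text has H3K5Ac instead.

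Sites outside chromosomes 1 to 19 and X were left out, and positions were read against the mm9 sequence (NCBIM37) and 22208 protein-coding genes of GENCODE vM1. Overlaps, distances, motif matches on both strands and counts per gene were computed with numpy 2.4.6 and scipy 1.17.1, and checked on simulated data. Intervals are Clopper-Pearson or Newcombe 95% intervals. Of 150 differences between classes, 23 intervals include 0. No p-value was computed. A site can count for several genes.

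The members and lists were chosen with earlier results of these data known. Genes were named by a rule: the 12 list members with the largest difference in each direction, the 5 genes of the genome with the largest in each direction, none within 200 kb of another, and a fixed set of C/EBP, osteoblast and vitamin D genes. A gene that the rule names is not reported here. Called list members outside this rule were named after their values were seen. Cebpd, Pla2g2a and Spi1 were not in the annotation used. Alternatives changed the overlap, the windows, the reach, and left out promoter sites or state-only sites near a site of the other state.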

Additional observations from a re-analysis of the deposited data

Results flagged for a closer look

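C/EBPβ sites on the Y chromosome lie outside the chromosomes compared. The list of undifferentiated cells holds 4 and that of differentiated cells 5, above the 3 set as the limit for a flag. No control list without antibody was analysed here, and these sites entered no comparison.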

How the results depend on the processing

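No paired analysis was possible because each state has 1 list and the labels carry no replicate numbers; for the same reason no replicate could be left out. The share of undifferentiated sites called in both states moved from 64.7% to 58.2%, 66.9% and 68.5% with centres at most 50, 500 and 1000 bp apart, and that of differentiated sites from 70.1% to 63.1%, 71.6% and 72.7%, and to 67.9% over 1 kb from a start. Every region of both lists was merged from at least 2 peaks, so that limit removed no site. The state-only differences at promoters and in introns kept their direction and excluded 0 under the 3 alternatives run for location. The difference between genes, whose interval includes 0 throughout, changed sign, to 0.296 points with promoters within 2 kb and 0.102 points without state-only sites near a site of the other state. Over 1 kb from a start, the state-only difference of VDR in differentiated cells with vehicle turned to 0.0270 points (-0.0780 to 0.153), that of RXR in differentiated cells with calcitriol to 1.27 points and that of H4K5ac in differentiated cells to 2.23 points, the latter 2 then excluding 0. The ETS difference became -0.143 points there and -0.0394 points with at most 3 CG in the window, an alternative chosen after seeing the data, and the DR3 difference -0.0587 points in a 100 bp window, all 3 then including 0. With 1 mismatch, a looser search that more windows pass, the C/EBP difference of differentiated-only sites against sites of both states turned to 0.320 points. Counting each site for the nearest gene only left 6609 and 5927 genes with a site in undifferentiated and differentiated cells. Genes called with more sites in differentiated cells then numbered 98, and 138 within 50 kb. Those called with more in undifferentiated cells numbered 165, 337 within 50 kb and 1336 within 250 kb. Among list genes, 4 were called with more in differentiated cells within 50 kb, 4 without state-only sites near a site of the other state and 1 with the nearest gene only, and 6 within 50 kb and 5 with the nearest gene only were called with more in undifferentiated cells. For each of these shifts the cause was not tested. Depth is unknown and limits every call of absence.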
